A study of Mus musculus with 107 samples.

Results

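The nuclear-encoded subunits of the mitochondrial respiratory chain were taken as 1 gene set across the whole study. Members were chosen by gene symbol, as the structural subunits of complexes I to V that are written in the nuclear genome, and no measured value entered the choice. The rule matched 87 symbols, of which 86 were among the 27179 genes counted (Ndufb1 was not analysed here). They comprised 37 genes of complex I, 4 of complex II, 8 of complex III, 20 of complex IV and 17 of complex V, with Ndufa4 and Ndufa4l2 placed in complex IV.

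The libraries of the study, 107 in all, held ribosome-bound mRNA from mouse cells that carried an HA tag on the ribosomal protein Rpl22 (RiboTag), so that tagged ribosomes could be pulled down from mixed tissue. All cultures and grafts came from 1 RiboTag embryonic stem cell (ESC) line, on a C57BL/6 background and female, whose tag had been switched on by crossing to Sox2-cre mice. A single line stands for 1 genotype, and grafts of it had no second line to set beside them. Host astrocytes were tagged instead by a Gfap-Cre driver, so their libraries follow cells with past or present Gfap promoter activity. Host mice were young adults of both sexes.

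The 23 groups, which had 4 to 9 libraries each, followed the cells from culture to the spinal cord. ESC (4 libraries) were induced into neural progenitor cells (NPC) and sampled at passage 5, 15 and 30 (NPC P5, NPC P15, NPC P30; 4 each), with 2 further derivations at passage 15 (NPC P15 D2, 6 libraries; NPC P15 D3, 4 libraries). NPC lost most of their EGF and FGF for 4 days and so differentiated, with nothing added (SPONT), with CNTF or IGF-1 at 100 ng/ml, with 1, 5, 10 or 20% fetal bovine serum (FBS), or with CNTF and 5% FBS together (4 libraries each). Others were drawn through fine glass pipettes in medium (NPC media), in a hydrogel (NPC DCH) or in the hydrogel for 4 h (NPC DCH 4 h; 5 each). In mice, NPC were placed into the cord 2 days after a crush injury (SCI) and recovered at 14 d or 5 d, or at 14 d from uninjured cord or from a double crush (dSCI) (5 libraries each). Host astrocytes came from healthy cord (9 libraries) or from cord 14 days after crush SCI (5 libraries). The study describes its graft libraries as separate mice and its culture replicates as independent. The labels do not say this for each library, so a p-value here weighs a group difference against the spread between these libraries only.

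The respiratory chain takes electrons from NADH at complex I and from succinate at complex II, passes them through complex III to oxygen at complex IV, and uses the proton gradient so built to make ATP at complex V. Each complex except complex II mixes a few subunits encoded by mitochondrial DNA with many made in the cytosol and imported, so the nuclear genes have to be expressed in proportion to one another. Several complex IV subunits exist as paired isoforms, a common form and a form known from heart and skeletal muscle (Cox6a2, Cox7a1, Cox8b), testis (Cox6b2, Cox7b2, Cox8c) or lung (Cox4i2). Neural stem cells and astrocytes are known for a high glycolytic rate, and differentiation of neural progenitors is commonly accompanied by greater use of oxidative phosphorylation.

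The promoters of Sdha, Atp5e, Cox8a and Cox8b are shown because their genes carry results described further on, and because they differ in the motifs that respiratory genes are known for. Each is the RefSeq window from 250 bases before to 50 bases after the gene start (mouse build GRCm38.p6), written 5′ to 3′ on the gene's strand. Capitals mark matches to the motifs searched.
Sdha (chr13:74350191-74350490, minus strand): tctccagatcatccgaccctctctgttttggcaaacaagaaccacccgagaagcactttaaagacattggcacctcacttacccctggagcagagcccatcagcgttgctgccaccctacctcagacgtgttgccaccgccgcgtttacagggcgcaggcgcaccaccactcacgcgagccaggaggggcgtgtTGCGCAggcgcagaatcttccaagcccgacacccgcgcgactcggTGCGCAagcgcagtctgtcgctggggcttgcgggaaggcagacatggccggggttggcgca
Atp5e (chr2:174464052-174464351, minus strand): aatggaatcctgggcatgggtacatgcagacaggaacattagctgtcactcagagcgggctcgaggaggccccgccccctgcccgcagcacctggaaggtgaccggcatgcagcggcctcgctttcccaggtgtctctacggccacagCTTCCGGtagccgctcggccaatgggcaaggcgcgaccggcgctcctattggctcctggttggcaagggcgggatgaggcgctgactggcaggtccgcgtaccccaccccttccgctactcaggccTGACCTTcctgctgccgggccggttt
Cox8a (chr19:7217567-7217866, minus strand): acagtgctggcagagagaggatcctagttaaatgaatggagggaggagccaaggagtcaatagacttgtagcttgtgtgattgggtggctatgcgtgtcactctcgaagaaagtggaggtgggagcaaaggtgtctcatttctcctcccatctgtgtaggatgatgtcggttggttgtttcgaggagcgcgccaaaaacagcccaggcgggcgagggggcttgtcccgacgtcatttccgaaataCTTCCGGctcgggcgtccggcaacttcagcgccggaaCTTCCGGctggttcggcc
Cox8b (chr7:140900397-140900696, minus strand): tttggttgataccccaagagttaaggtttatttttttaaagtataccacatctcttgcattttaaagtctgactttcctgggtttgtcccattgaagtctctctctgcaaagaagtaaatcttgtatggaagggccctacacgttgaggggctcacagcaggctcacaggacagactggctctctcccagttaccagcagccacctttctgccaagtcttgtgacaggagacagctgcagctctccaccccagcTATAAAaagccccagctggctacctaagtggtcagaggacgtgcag

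Of the 86 members, 69 had such a window. The motif core TGCGCA of the factor NRF1, a known activator of respiratory genes, was in 18 of them (26.1%), against 8.06% of all 27025 windows in the table. The ETS family motif CCGGAAG, which reads CTTCCGG on the other strand, was in 16 member windows (23.2% against 9.12%). The YY1 site AAGATGGC was in 9 (13.0% against 2.88%), and the nuclear receptor motif core AAGGTCA in 8 (11.6% against 4.66%). The TATA box start TATAAA was in 8 (11.6% against 14.2%). Both strands were searched and none of these motifs contains another. The windows of 29 members held none of the 5 motifs, which says only that these letters were absent there. Sdha had its NRF1 matches 56 and 11 bases before the start, and the housekeeping subunit gene Cox8a had 2 ETS matches. Its muscle-type partner Cox8b had the TATA letters alone, and these began 4 bases after the annotated start, not before it. Member windows were also richer in G and C (median 57.3% against 52.7%), and the motif shares were not matched for this.

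Total gene counts ranged from 30473157 to 147764968 in the 96 paired-read libraries. The 11 single-read libraries, all of NPC P15 D2 and of the grafts at 5 d, held 12286240 to 18085106, so the read type cannot be told apart from those groups. ESC markers (Pou5f1, Nanog, Zfp42, Dppa4, Esrrb) summed to at least 2350 CPM (counts scaled to a common library total) in each ESC library and to at most 21.6 CPM in the others. Astrocyte markers (Gfap, Aqp4 and 4 others) summed to 24136 to 35827 CPM in host astrocytes. Some libraries stood apart in the members' summed level: SPONT replicate 2, host astrocytes SCI replicate 5 and graft SCI 5 d replicate 1 were high, and replicate 5 of the SCI 14 d and dSCI 14 d grafts was low. Results that rest on them are given with and without them.

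Together the 86 genes took between 0.689% and 2.22% of all counts as group means, and the summed level set the cell sources apart (as plotted by library). ESC libraries summed to 14660.2 ± 507 CPM (SD, n = 4), and NPC P5, P15 and P30 to 15350.1 ± 92.4, 13210.4 ± 467 and 13858 ± 450 (SD, n = 4 each). NPC P15 D3, nominally the same stage as NPC P15, reached 22066 ± 2601 (n = 4), and all 4 of its libraries were above all 4 of NPC P15. IGF-1 cultures were as high, at 22219.6 ± 972 (n = 4). Grafts were lowest: 9775 ± 2851 in SCI 14 d, 8859 ± 1494 in uninjured cord, 6895 ± 1993 in dSCI 14 d and 11532 ± 2042 in SCI 5 d (n = 5 each). In bulk samples of this kind, fewer cells of a type and less RNA per cell cannot be told apart.

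**Figure D1:**
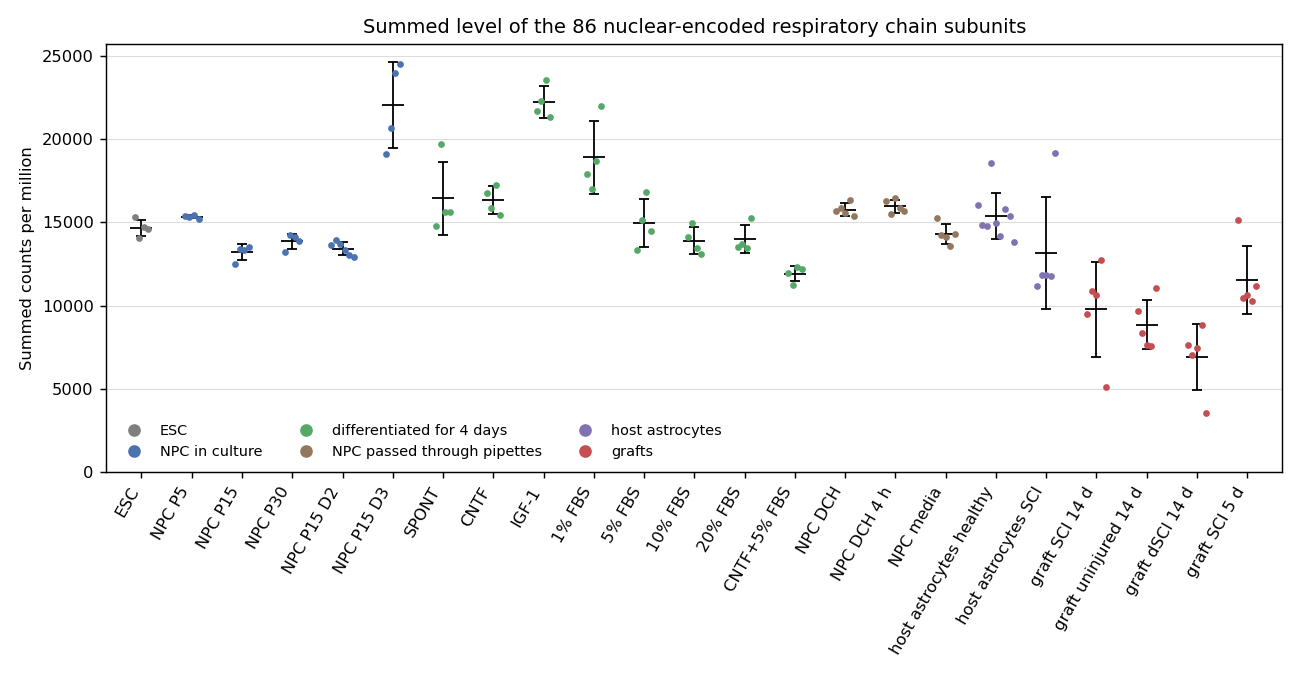
Summed CPM of the 86 nuclear-encoded respiratory chain subunits in each of 107 libraries, by group; each point is 1 library, and the bar and whiskers are the group mean ± SD. NPC P15 D3 and IGF-1 cultures have the highest means, 22066 and 22219.6, and no graft library at 14 d exceeds 12749 CPM.

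Within a cell the genes differed widely in level. Per kilobase of spliced transcript, Atp5b, the catalytic beta subunit of ATP synthase, had the highest mean level of all members in 15 of 23 groups, at 1097 CPM per kilobase in NPC P15. In that group it was followed by Atp5g3, one of the genes of the c-ring, at 567 and the complex IV subunit Cox6a1 at 563 CPM per kilobase. Cox6a1 was among the 5 highest in 20 of 23 groups. Healthy host astrocytes had another order, with Cox4i1, the largest nuclear subunit of complex IV, at 802 and the complex III hinge protein gene Uqcrh at 690 CPM per kilobase, above Atp5b at 633. At the low end, Uqcr11 and the isoform Cox8c stayed under 1 CPM in all 23 groups. Uqcr11 encodes a constant subunit of complex III, so a value near 0 is stated here only as listed in the files. Sdhd, which anchors complex II in the membrane, had at most 12.9 CPM per kilobase in any group. Ndufb4b and Ndufb4c are near-identical copies of Ndufb4, and the split of reads among these 3 genes is uncertain.

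Neural induction moved the complexes in different directions. The summed level of NPC P15 was 0.901 times that of ESC, without overlap, but the direction of the total turned with the culture, since the means of NPC P5 (15350.1 CPM) and NPC P15 D3 (22066) lay above the ESC mean of 14660.2. In NPC P15 against ESC, 16 of 82 tested members rose and 28 fell (called at adjusted p < 0.01), where 32.2% of all genes tested rose and 34.9% fell, and the members' median log2 difference was -0.07 against -0.10 for all genes. Complex II and complex IV went apart: 3 of the 4 genes of complex II rose and none fell, while 10 of 17 tested genes of complex IV fell and 2 rose. The summed level of complex II was 488 ± 9.01 CPM in ESC and 668 ± 22.7 in NPC P15 (SD, n = 4 each) without overlap, and that of complex V 7024 ± 186.5 and 5686 ± 170.7, again without overlap. Atp5b was at 2948, 2811, 2846 and 2947 CPM in ESC and at 2032, 2135, 2066 and 2174 CPM in NPC P15. All 4 NPC libraries were lower, and the log2 difference was -0.55 ± 0.03 (SE; adjusted p = 1.12e-08). Ndufa11, an accessory subunit that helps hold complex I together, fell most among complex I genes at -1.43 ± 0.07 (adjusted p = 5.51e-09). In the same complex Ndufc2 (1.03 ± 0.07, adjusted p = 1.1e-07) and Ndufa12 (0.82 ± 0.11, adjusted p = 4.43e-05) rose. Sdhb, the iron-sulphur subunit of complex II, rose from 58.4 ± 2.96 to 85.5 ± 2.82 CPM.

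The isoforms changed far more than their common partners. Cox6b2 was at 57.8, 61.1, 63.8 and 51.97 CPM in ESC and at 2.21, 1.59, 4.54 and 4.81 in NPC P15, a drop without overlap (log2 difference -4.27 ± 0.32, adjusted p = 2.57e-07). Cox4i2 was at 2.37 ± 0.693 CPM in ESC and at 0 in 2 of 4 NPC P15 libraries, and Cox7a1 went from 3.20 ± 1.04 to 0.501 ± 0.378 CPM. Cox6a2 went the other way and was almost absent from ESC, with at most 4 counts in a library. It stood at 48.2, 50.4, 53.6 and 53.7 CPM in NPC P15. Other NPC did not share that level: Cox6a2 was at 5.21, 4.03, 4.33 and 3.56 CPM in NPC P5, at 4.55, 9.58, 7.05 and 7.73 in NPC P30, and between 3.58 and 5.09 (median 4.48) in the 6 libraries of NPC P15 D2. NPC P15 D3 lay between, at 17.4, 20.9, 24.3 and 18.5 CPM. Skeletal muscle markers summed to at most 1.17 CPM in each NPC P15 library. The choice of NPC culture decided much of the comparison with ESC, because with NPC P5 in place of NPC P15 30 members rose and 19 fell, and with NPC P15 D3 60 rose and 5 fell.

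NPC P30 had lower levels of many subunits than NPC P5. In NPC P30 against NPC P5, 31 of 81 tested members fell and 0 rose, where 18.1% of all genes tested fell, and the members' median was -0.15 against 0.01 for all genes. The calls covered all 5 complexes, with 15 of complex I, 1 of complex II, 4 of complex III, 3 of complex IV and 8 of complex V. Uqcrh fell from 250 ± 3.84 to 170 ± 8.11 CPM (SD, n = 4 each), a log2 difference of -0.58 ± 0.04 (adjusted p = 1.66e-09). The accessory subunit Ndufb6 fell by more, from 114 ± 5.85 to 69.9 ± 6.55 CPM. Ndufv1, which carries the NADH binding site of complex I, went from 166 ± 4.29 to 133 ± 1.80 CPM and Atp5b from 2398 ± 37.8 to 2141 ± 48.6 CPM, in each case without overlap. The largest fall was in Cox6b2 (12.6 ± 1.89 to 5.43 ± 1.56 CPM). Cytosolic ribosome genes fell alongside (75 of 83, median -0.42), as did 39 of 78 genes of the mitochondrial ribosome. Median marker sums moved too, from 588 to 1261 CPM for astrocytes, from 53.2 to 107.6 for neurons and from 1721 to 1398 for the oligodendrocyte lineage, and their part in the falls was not tested. The levels did not fall steadily with passage. The summed level of NPC P15 was 13210.4 CPM, below both NPC P5 (15350.1) and NPC P30 (13858). The study took its passages from 1 derivation, so passage and culture cannot be told apart. With all groups in 1 fit only 3 members were called.

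After mitogens were reduced, most nuclear subunits were higher than in NPC P15. In SPONT against NPC P15, 58 of 82 tested members rose and 3 fell, where 29.8% of all genes tested rose and 27.4% fell, and the members' median was 0.60 against 0.08 for all genes. Complex I led with 29 of 37 risen and none fallen (median 0.73), followed by complex IV with 10 of 17 (median 0.61), complex V with 11 of 17 (0.52), complex III with 5 of 7 (0.41) and complex II with 3 of 4 (0.39). Ndufa11, which had fallen at neural induction, was at 43.7, 48.8, 45.8 and 43.1 CPM in NPC P15 and at 111, 175.5, 125 and 119.1 CPM in SPONT. Every SPONT library was more than double any NPC P15 library (log2 difference 1.68 ± 0.15, adjusted p = 1.89e-06). Ndufa2 (1.47 ± 0.15, adjusted p = 6.5e-06) and Atp5l, a membrane subunit of ATP synthase (1.43 ± 0.18, adjusted p = 3.02e-05), were the next largest at 10 CPM or more. Cox4i1 doubled from 305 ± 20.97 to 602 ± 116 CPM and Ndufv1 rose from 115 ± 12.2 to 192.1 ± 21.8 CPM. Sdha, the flavoprotein of complex II, rose less, by 0.37 ± 0.08, and its libraries overlapped.

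The beta subunit of ATP synthase went the other way. Atp5b fell by 0.41 on the log2 scale (SE 0.05, adjusted p = 3.6e-05), from 2102 ± 64.6 to 1445 ± 53.9 CPM, and Cox7a2l, a factor that joins complexes III and IV, fell from 123 ± 5.63 to 85.8 ± 3.08 CPM. The third member to fall was Cox6a2, whose 4 SPONT libraries were at 0.365, 1.42, 0.398 and 0.442 CPM. Cox8b appeared at the same time. It had 19 counts in 1 NPC P15 library and none in the other 3, and stood at 6.41, 17.05, 6.59 and 6.37 CPM in SPONT. Regulators of mitochondrial biogenesis (Ppargc1a, Nrf1, Tfam and 7 others) moved against the subunits, with 8 of 10 fallen and none risen (median -0.97). Assembly factors, which build the complexes, were mixed (14 of 36 rose, 8 fell). Astrocyte markers rose in the same contrast from a median sum of 701 to 8313 CPM, and their part in the subunits' rise was not tested.

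The direction of this result depends on the NPC culture it is set against. With NPC P5 as the reference 40 members rose and 6 fell. With NPC P15 D3, whose summed level was above that of SPONT, 6 rose and 23 fell, and Ndufa2, Atp5l, Cox4i1 and Sdha turned sign. The sources used here do not say which derivation was differentiated. The libraries also differed in the share of even values among gene counts of 1 to 20. It was 67.6 to 73.7% in NPC P15, 62.7 to 65.3% in NPC P15 D3 and 62.5 to 64.4% in SPONT. The cause of this difference and its part in the result were not tested. SPONT also serves as the control of the CNTF, IGF-1 and 1% FBS comparisons, NPC P15 of those with SPONT, NPC media and grafts, and graft SCI 14 d enters 4 comparisons, so these are not independent of one another.

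**Figure D2:**
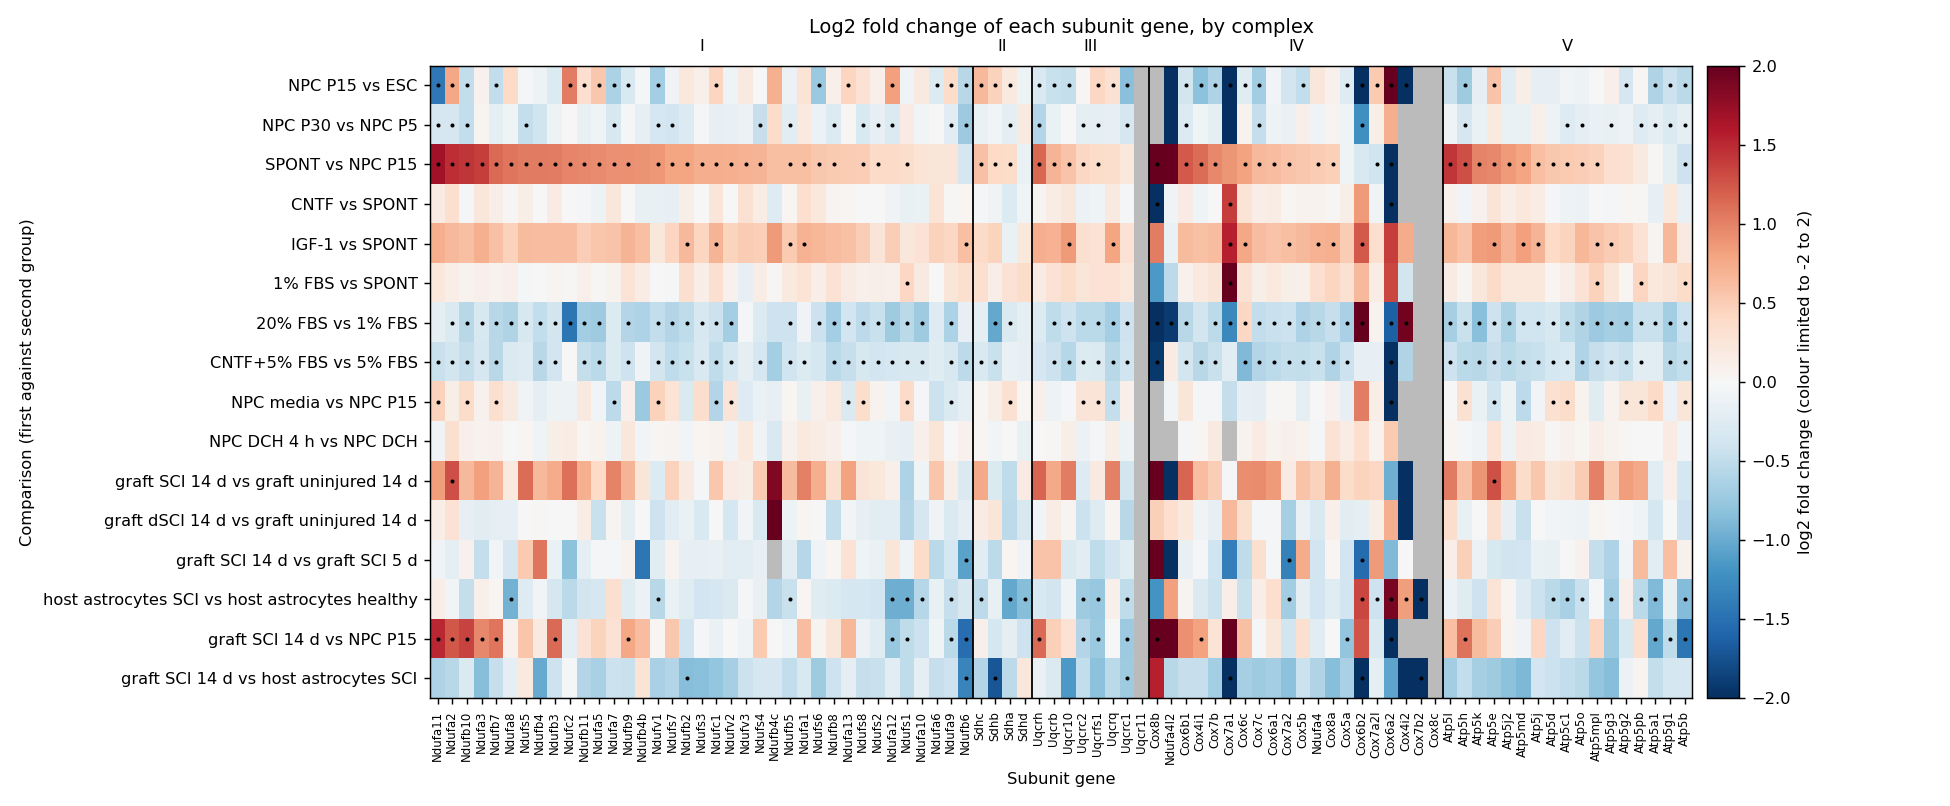
Log2 fold change of each of the 86 genes (columns, grouped by complex I to V) in 16 comparisons (rows, named as first against second group); red is higher in the group named first, blue is lower, grey was not tested, and a black dot marks an adjusted p under 0.01. The SPONT row is red in 74 of 82 tested genes, and the rows for 20% against 1% FBS and for CNTF added to 5% FBS are blue in 79 and 82 of 83.

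With CNTF, a cytokine that drives astrocyte formation, 1 of 82 tested members rose and 2 fell against SPONT (10.8% and 9.15% of all genes tested), with a median of 0.02 for members and -0.01 for all genes. All 3 were low isoform genes of complex IV. Cox8b was at 2.26, 1.65, 2.19 and 1.22 CPM with CNTF, below every SPONT library (log2 difference -2.30 ± 0.37, adjusted p = 0.000836). Cox7a1 was at 1.964, 2.00, 2.66 and 2.16 CPM against 0.769, 1.19, 0.457 and 0.982 in SPONT, again without overlap (1.39 ± 0.27, adjusted p = 0.00308). Cox6a2 was at 0.118 ± 0.0639 CPM against 0.655 ± 0.508. The summed level of the members was 16332 ± 829 CPM with CNTF and 16437 ± 2210 in SPONT (SD, n = 4 each). SPONT replicate 2, at 19700 CPM, widened that spread, and without it 31 members rose and 4 fell. Astrocyte markers had a median sum of 22707 CPM with CNTF and 8313 in SPONT, but single markers moved in different directions. Gfap and Aqp4 were called higher with CNTF and Gjb6 was called lower. S100b and Slc1a3 were lower and Aldh1l1 higher, without passing the test.

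Cultures given IGF-1, which acts through the insulin-like growth factor receptor, had the highest summed level of the differentiated cultures. Against SPONT 18 of 83 tested members rose and 0 fell, where 2.8% of all genes tested rose, and 81 of 83 had a log2 difference above 0 (median 0.60 against -0.01 for all genes). Of the called genes 5 belonged to complex I, 2 to complex III, 6 to complex IV and 5 to complex V. Atp5e, the epsilon subunit of ATP synthase whose promoter is printed above, was at 137, 190, 138 and 144 CPM in SPONT and at 248, 248, 294 and 270 CPM with IGF-1. All IGF-1 libraries were above all SPONT libraries (log2 difference 0.85 ± 0.13, adjusted p = 0.00528). Uqcr10, a small subunit of complex III, rose by 0.84 ± 0.16 (adjusted p = 0.00743), and Atp5md, a subunit linked to ATP synthase dimers, by 0.82 ± 0.15 (adjusted p = 0.00743). Cox8a went from 307 ± 51.5 to 484 ± 29.4 CPM and Ndufa4 from 293 ± 38.6 to 456 ± 34.4 CPM. Among the isoforms Cox7a1 (0.849 ± 0.313 to 2.41 ± 0.140 CPM) and Cox6b2 (2.41 ± 0.753 to 5.43 ± 0.367 CPM) rose. Cox8b reached its highest level of the study, at 18.0, 16.8, 20.4 and 16.3 CPM, which overlapped with SPONT replicate 2.

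The number of members that passed with IGF-1 changed with single libraries. Without SPONT replicate 2, 76 members rose, without SPONT replicate 1 there were 4, and without any 1 of the other 6 libraries there were 0, while all log2 differences named above stayed positive. With DESeq2 69 members were called. Astrocyte markers summed to 6992 to 10738 CPM (median 8313) in SPONT and to 13597 to 15304 (median 14269) with IGF-1, with all 6 at 1 CPM or more in both. Oligodendrocyte lineage markers stood at a median sum of 2821.6 CPM with IGF-1 and 1688.9 in SPONT. The part of either in the rise was not tested.

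At 1% serum few members passed the test, at a share near that of all genes. In 1% FBS against SPONT, 5 of 83 tested members rose and 0 fell, where 5.63% of all genes tested rose, with a median of 0.18. The 5 were Atp5b (1445 ± 53.9 to 1842 ± 180 CPM), Atp5pb of the stator stalk (290 ± 10.53 to 388 ± 39.01), the small ATP synthase protein gene Atp5mpl (62.2 ± 2.26 to 85.2 ± 12.5), Ndufs1, the largest core subunit of complex I (124 ± 6.45 to 163 ± 15.7), and Cox7a1. Cox7a1 was at 5.16, 3.86, 3.89 and 5.70 CPM in 1% FBS, above all 4 SPONT libraries (log2 difference 2.47 ± 0.27, adjusted p = 0.000181). Without SPONT replicate 2 the count was 19, and without SPONT replicate 3 or 4 or any 1 of the 1% FBS libraries it was 1 or 2. Astrocyte markers had a median sum of 19684 CPM in 1% FBS and 8313 in SPONT.

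From 1% to 20% FBS most subunits fell. Of 83 tested members 66 fell and 3 rose, where 29.6% of all genes tested fell and 30.4% rose, and the median was -0.49 against 0.00 for all genes. All 17 tested genes of complex V fell, as did 28 of 37 of complex I, 6 of 7 of complex III, 13 of 18 of complex IV and 2 of 4 of complex II. The summed level was 18901 ± 2181 CPM at 1%, 14945 ± 1452 at 5%, 13901 ± 822 at 10% and 14000.2 ± 858 at 20% FBS (SD, n = 4 each), so the largest step lay between the 1% and 5% cultures (as plotted by complex). The libraries at 1% FBS were all above those at 5, 10 and 20%. A slope over the 4 doses called 67 members down and 3 up.

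**Figure D3:**
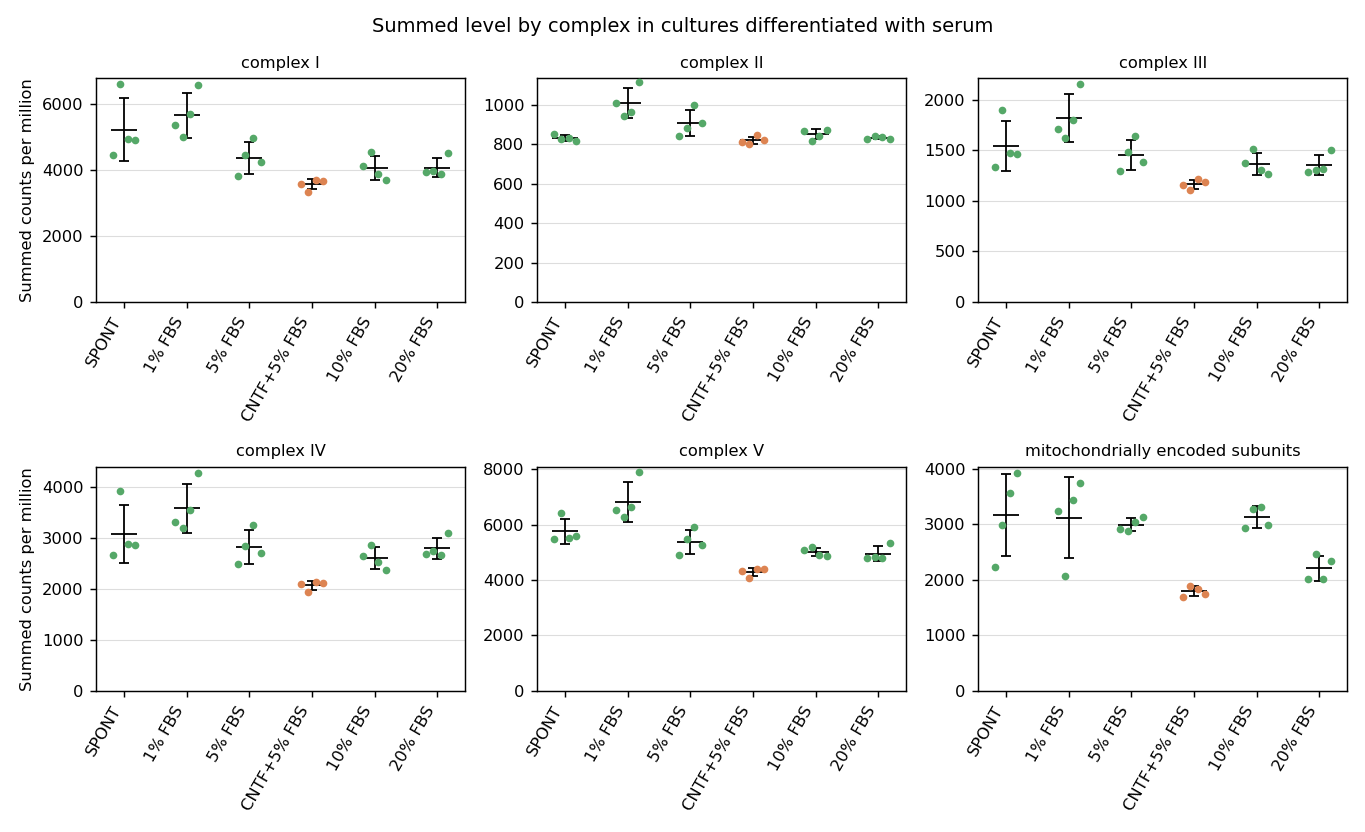
Summed CPM by complex, and of the 13 subunits encoded by mitochondrial DNA, in cultures differentiated for 4 days without serum (SPONT), with 1, 5, 10 or 20% FBS, or with CNTF and 5% FBS (orange); points are libraries (n = 4 per group), with mean ± SD. In complexes I, III, IV and V the CNTF and 5% FBS libraries lie below those with 5% FBS alone.

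The largest fall at 10 CPM or more was in Ndufc2, an accessory subunit of complex I. It was at 342.8, 329, 424 and 471 CPM in 1% FBS and at 137, 131, 139 and 179.3 CPM in 20% FBS, with a wide gap between the groups (log2 difference -1.45 ± 0.12, adjusted p = 4.99e-07). Sdhb followed (111 ± 12.7 to 55.8 ± 5.11 CPM, -1.03 ± 0.09, adjusted p = 4.57e-07), and Atp5k, subunit e of ATP synthase (181 ± 24.1 to 104.2 ± 13.9 CPM, -0.83 ± 0.10). The core genes Ndufs1 (-0.54 ± 0.06) and Cox5a (-0.66 ± 0.07) fell near the median of the set. Cox8b and Cox7a1 fell as well, Cox8b to 0.570, 0.804, 0.527 and 0.848 CPM. All 3 genes that rose belonged to complex IV. Cox6b2 went from 3.39, 3.59, 3.37 and 4.73 CPM to 19.3, 20.8, 17.1 and 13.5 CPM, higher in every library (2.20 ± 0.15, adjusted p = 6e-08). Cox6c rose by 0.41 ± 0.11 (adjusted p = 0.0056) with overlapping libraries, and Cox4i2 was under 1 CPM in both groups. Hypoxia response genes (Vegfa, Pdk1, Bnip3 and 6 others) rose in the same contrast, 8 of 9 with a median of 0.91. Median marker sums also moved, from 19684 to 4744 CPM for astrocytes, from 47.6 to 407 for fibroblasts and from 1.87 to 64.5 for endothelium (where 2 of 4 markers reached 1 CPM), and their part in the fall was not tested.

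With serum present, cultures given CNTF had lower subunit levels. In CNTF+5% FBS against 5% FBS, 65 of 83 tested members fell and 0 rose, where 12.0% of all genes tested fell, and 82 of 83 had a log2 difference below 0 (median -0.42 against -0.02 for all genes). In complex V 16 of 17 fell, in complex I 28 of 37, in complex IV 13 of 18, in complex III 6 of 7 and in complex II 2 of 4. Cox6c was at 262, 261, 335.2 and 278 CPM in 5% FBS and at 166, 146, 167.4 and 167.6 CPM with CNTF added. The groups did not overlap, and the log2 difference of -0.88 ± 0.07 (adjusted p = 3.88e-05) was the largest at 10 CPM or more. Cox8a, whose promoter holds 2 ETS matches, fell by 0.61 on the log2 scale (SE 0.07, adjusted p = 0.0002), and Atp5o, the stalk protein OSCP, by 0.60 (SE 0.08, adjusted p = 0.000343). Cox4i1 went from 513 ± 71.8 to 368 ± 18.96 CPM and Atp5b from 1485 ± 88.0 to 1113 ± 32.6 CPM. The low isoforms Cox8b (1.24 ± 0.378 to 0.337 ± 0.153 CPM) and Cox6a2 (0.370 ± 0.230 to 0.0553 ± 0.0242 CPM) fell too. Genes of the cytosolic ribosome fell in like manner (75 of 83, median -0.51), and so did 7 of 13 mitochondrially encoded subunits (median -0.84). Without replicate 2 or replicate 4 of CNTF+5% FBS 42 members fell. Fibroblast markers summed to 124 to 499 CPM in 5% FBS (4 of 4 at 1 CPM or more) and to 14.8 to 18.0 CPM with CNTF added (3 of 4), and neuron markers to a median of 83.3 and 147.1 CPM. Astrocyte markers overlapped, at 12707 to 19569 and 14801 to 16649 CPM. The part of these cells in the falls was not tested.

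The difference between the CNTF effect with and without serum was tested as an interaction. It was below 0 and called for 25 of 83 members and above 0 for none, where 12.6% of all genes tested were called below 0, with a median of -0.48 against -0.05. Cox6c gave the largest difference at 10 CPM or more, -1.16 ± 0.15 (adjusted p = 2.59e-05), from group means of 200 ± 34.2 CPM in SPONT, 237 ± 18.9 with CNTF, 284 ± 34.96 with 5% FBS and 162 ± 10.6 with both. Uqcr10 (-0.81 ± 0.18, adjusted p = 0.00232) and the c-ring gene Atp5g1 (-0.79 ± 0.20, adjusted p = 0.00639) were next, and Atp5b differed by -0.35 ± 0.07 (adjusted p = 0.00167). Cox7a1 was lowest in SPONT (0.849 ± 0.313 CPM) and between 2.19 and 2.58 CPM in the other 3 groups. Leaving out SPONT replicate 2 brought the count to 69. Without SPONT replicate 1, 3 or 4, CNTF replicate 1 or 3, 5% FBS replicate 3 or CNTF+5% FBS replicate 1, 2 or 4 it was between 8 and 16.

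Passing NPC through a pipette in medium gave small and divided changes. In NPC media against NPC P15, 17 of 81 tested members rose and 8 fell, where 13.2% and 13.0% of all genes tested did, and both medians were near 0 (0.02 and -0.00). Atp5a1, the alpha subunit of ATP synthase, rose from 1228 ± 38.8 (SD, n = 4) to 1594 ± 37.8 CPM (n = 5), a log2 difference of 0.38 ± 0.03 (adjusted p = 3.15e-09). Ndufv1 (115 ± 12.2 to 158.6 ± 7.34 CPM) and Ndufa11 (45.4 ± 2.59 to 62.4 ± 3.52 CPM) rose too. The 8 that fell included Ndufc1 (45.2 ± 3.52 to 30.1 ± 6.59 CPM), Atp5md (48.2 ± 2.88 to 33.5 ± 7.23) and Uqcrq (186 ± 19.8 to 133.9 ± 12.3). Cox6a2, at 51.5 ± 2.67 CPM in NPC P15, was at 1.41 ± 1.17 CPM in NPC media. This contrast also turned with the NPC culture used as reference: 2 members rose and 18 fell against NPC P5, and 0 rose and 70 fell against NPC P15 D3. The 4 h stay in the hydrogel called 0 of 79 tested members in edgeR, where 0.32% of all genes tested were called in either direction. Of these, 14 had an unadjusted p under 0.05, and DESeq2 called 2. The mitochondrially encoded subunits were called in the hydrogel contrast, with 6 of 13 lower after 4 h (median -0.88).

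Few members passed the test between grafts of injured and uninjured hosts, at a share near that of all genes. In graft SCI 14 d against graft uninjured 14 d, 2 of 83 tested members rose and 0 fell, where 2.09% of all genes tested rose. An unadjusted p under 0.05 was reached by 42, DESeq2 called 18, and with all groups of the study in 1 fit 44 were called. The median was 0.51 against -0.05 for all genes, and 68 of 83 log2 differences were above 0. The 2 genes were Atp5e and Ndufa2. Atp5e was at 83.6, 100.6, 118, 148 and 37.1 CPM in the injured cord and at 51.2, 38.2, 61.3, 43.999 and 46.2 CPM in the uninjured cord. Replicate 5 of the injured group lay below all uninjured libraries and the other 4 above them (log2 difference 1.28 ± 0.27, adjusted p = 0.0074). Ndufa2 gave 1.28 ± 0.27 as well (adjusted p = 0.00789), from 58.0 ± 8.08 to 118 ± 54.1 CPM. Replicate 5 decided the count, as 20 members rose without it, while without any other 1 library of these 2 groups none did. Cox8b was at 3.96, 10.2, 7.99, 6.13 and 2.27 CPM in injured cord and at most 2.15 CPM in uninjured cord. No member was called in the dSCI 14 d grafts against uninjured cord in edgeR (0 of 83, with 4.19% of all genes tested called in either direction). Of these, 4 had an unadjusted p under 0.05 and DESeq2 called 0.

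Among injured hosts, 3 of 82 tested members were lower at 14 d than at 5 d and 0 were higher, where 2.58% of all genes tested fell, with a median of -0.14 against 0.00. Cox6b2 was at 28.98, 15.5, 22.7, 19.5 and 14.3 CPM at 5 d and at 6.89, 4.31, 6.36, 8.55 and 4.74 CPM at 14 d, without overlap (log2 difference -1.54 ± 0.29, adjusted p = 0.00465). Cox7a2 (29.2 ± 6.10 to 10.3 ± 2.74 CPM) and Ndufb6 (55.6 ± 4.14 to 23.6 ± 8.51 CPM) were the others. The libraries at 5 d were read as single reads and those at 14 d as pairs, so time and read type cannot be told apart. Without replicate 5 of the 14 d group 3 members rose and 1 fell, without replicate 2 there was no call, without replicate 1 or 3 of that group or replicate 1 or 3 of the 5 d group 1 fell, and without replicate 4 of the 5 d group 2 rose and 3 fell.

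The subunits encoded by mitochondrial DNA had higher mean levels in the 14 d grafts than in any culture. The 13 genes summed to 8388 ± 1916 CPM in SCI 14 d, 11665 ± 7367 in uninjured cord and 12063 ± 5588 in dSCI 14 d (n = 5 each), where no culture library exceeded 3972 CPM. Not all grafts lay above the cultures, since replicate 5 of the uninjured group was at 3548 CPM and replicate 4 of the dSCI group at 2811. Grafts at 5 d had 1901 ± 705 CPM. Against 5 d, 7 of 13 rose by 14 d (median 2.29), where 2.72% of all genes tested rose, with the same limit of read type. Markers of cells other than astrocytes were also present in grafts: oligodendrocyte lineage markers had a median sum of 19432 CPM in uninjured and 7524 in SCI 14 d grafts, fibroblast markers 8976 in dSCI 14 d and 5984 in SCI 5 d grafts, and all 8 myeloid markers reached 1 CPM in each group. The study reports oligodendrocyte lineage cells among the progeny of its grafts, so those markers do not tell graft from host. Pulled-down RNA can include RNA of host cells, and its part in these levels was not tested. The tagged protein Rpl22 belongs to the cytosolic ribosome. How RNA of the mitochondrially encoded subunits came into the pull-down was not tested, here or in the other comparisons.

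Against the cultured NPC, grafts differed in the balance of the complexes. In graft SCI 14 d against NPC P15, 11 of 82 tested members rose and 12 fell, where 29.5% and 22.5% of all genes tested did, with a median of 0.05 against 0.23. Complex V had the largest drop in summed level, from 5686 ± 170.7 (n = 4) to 2978 ± 728 CPM (n = 5), without overlap. Atp5b fell from 2102 ± 64.6 to 624 ± 169 CPM (log2 difference -1.44 ± 0.15, adjusted p = 6.2e-06) and Ndufb6 from 85.3 ± 5.63 to 23.6 ± 8.51 CPM (-1.53 ± 0.22, adjusted p = 6.65e-05). Higher in grafts were Ndufa11 (1.51 ± 0.24, adjusted p = 0.000199), Ndufb10 (1.35 ± 0.22, adjusted p = 0.000246), Uqcrh (1.14 ± 0.31, adjusted p = 0.00739) and Atp5h (1.09 ± 0.23, adjusted p = 0.00127), with libraries that overlapped for all but Ndufa11. Cox8b went from near 0 to 6.12 ± 3.16 CPM and Cox6a2 from 51.5 ± 2.67 to 0.706 ± 0.439 CPM. Without replicate 5 of the grafts 20 rose and 13 fell, without any 1 NPC P15 library between 12 and 13 were called, and against NPC P15 D3 2 rose and 42 fell.

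Of the 10 core subunits listed for every comparison, 7 fell in host astrocytes after injury. Sdhb (-0.14, adjusted p = 0.169), Cox4i1 (-0.29, adjusted p = 0.188) and Cox5a (-0.38, adjusted p = 0.113) did not pass. In host astrocytes SCI against healthy, 23 of 84 tested members fell and 3 rose, where 18.8% of all genes tested fell and 22.2% rose, and the median was -0.32 against 0.02 for all genes. Falls covered 7 of 37 genes of complex I, 3 of 4 of complex II, 3 of 7 of complex III, 3 of 19 of complex IV and 7 of 17 of complex V. Sdha, whose promoter carries 2 NRF1 matches, ranged from 572 to 666 CPM (median 605) in the 9 healthy libraries and was at 287, 273, 335.4, 420 and 378 CPM after injury. No injured library reached the lowest healthy one, and the log2 difference was -1.02 ± 0.10 (SE, adjusted p = 2.78e-07). Ndufa12 (-0.98 ± 0.11, adjusted p = 7.08e-07) and Ndufs1 (-0.97 ± 0.11, adjusted p = 9.48e-07) fell about as much. Atp5b went from 1212 ± 92.998 (n = 9) to 751 ± 100.3 CPM (n = 5), and the Rieske iron-sulphur protein gene Uqcrfs1 of complex III from 192.7 ± 20.8 to 127.5 ± 28.9 CPM. All 4 tested carriers (such as the ADP/ATP carrier Slc25a4) fell, and so did 10 of 12 mitochondrially encoded subunits (median -1.40), while 43 of 84 cytosolic ribosome genes rose and none fell.

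The 3 genes that rose were isoforms of complex IV. Cox6b2 ranged from 7.40 to 12.3 CPM (median 8.57) in healthy astrocytes and was at 25.2, 29.1, 26.2, 20.0 and 34.9 CPM after injury, higher in every library (log2 difference 1.33 ± 0.16, adjusted p = 1.57e-06). Cox4i2 went from 3.21 ± 0.790 to 6.33 ± 2.47 CPM and Cox6a2 from 0.324 ± 0.126 to 1.31 ± 1.36 CPM. Host astrocytes SCI replicate 5 held skeletal muscle markers at 114 CPM, where the other 4 libraries of its group held 4.27 to 5.83. It also had the group's highest Cox6a2 (3.65 CPM), Cox7a1 (40.7 CPM) and Cox8b (5.22 CPM), genes known from muscle. Without it the log2 difference of Cox6a2 was 0.94 (adjusted p = 0.103) and that of Cox4i2 0.51 (adjusted p = 0.025), and 60 members fell and 1 rose. Its summed level was 19195 CPM, against 11147 to 11852 in the other 4. Oligodendrocyte lineage markers had a median sum of 6943 CPM in healthy and 30602 CPM in injured libraries. Myeloid markers summed to 15.3 to 27.6 CPM in healthy and 166.4 to 990.4 in injured libraries (5 and 8 of 8 at 1 CPM or more), and fibroblast markers to 29.4 to 79.2 and 422 to 982 CPM (3 and 4 of 4). The part of any of these in the falls was not tested.

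Graft SCI 14 d was set beside host astrocytes taken 14 days after the same type of injury. Of 84 tested members 7 were lower in the grafts and 0 higher. The share that was lower was near that of all genes tested (7.84%). The median was -0.53 against 0.01 for all genes, and 79 of 84 log2 differences were below 0. The study counts the days of these grafts both from injury and from grafting, so the 2 cell sources may differ by 2 days. Cox7a1 set these cells apart: it was at 15.7, 16.6, 22.9, 16.8 and 40.7 CPM in host astrocytes and at 2.33, 3.42, 0.906, 1.89 and 1.88 CPM in grafts (log2 difference -3.53 ± 0.40, adjusted p = 6.78e-05). Healthy host astrocytes were in the same high range (16.2 to 25.6 CPM, median 17.9), and no culture library exceeded 5.70 CPM. Cox6b2 (27.1 ± 5.48 against 6.17 ± 1.71 CPM) and Sdhb (167.4 ± 15.5 against 53.8 ± 10.53 CPM) were lower in grafts as well, as was Uqcrc1, a core protein of complex III (235 ± 33.7 against 152 ± 38.1 CPM). Cox7b2 was listed at 0 in all 5 grafts and at 0.2703 ± 0.121 CPM in host astrocytes. All 13 mitochondrially encoded subunits were higher in the grafts (median 3.47), where 6.79% of all genes tested were.

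**Figure D4:**
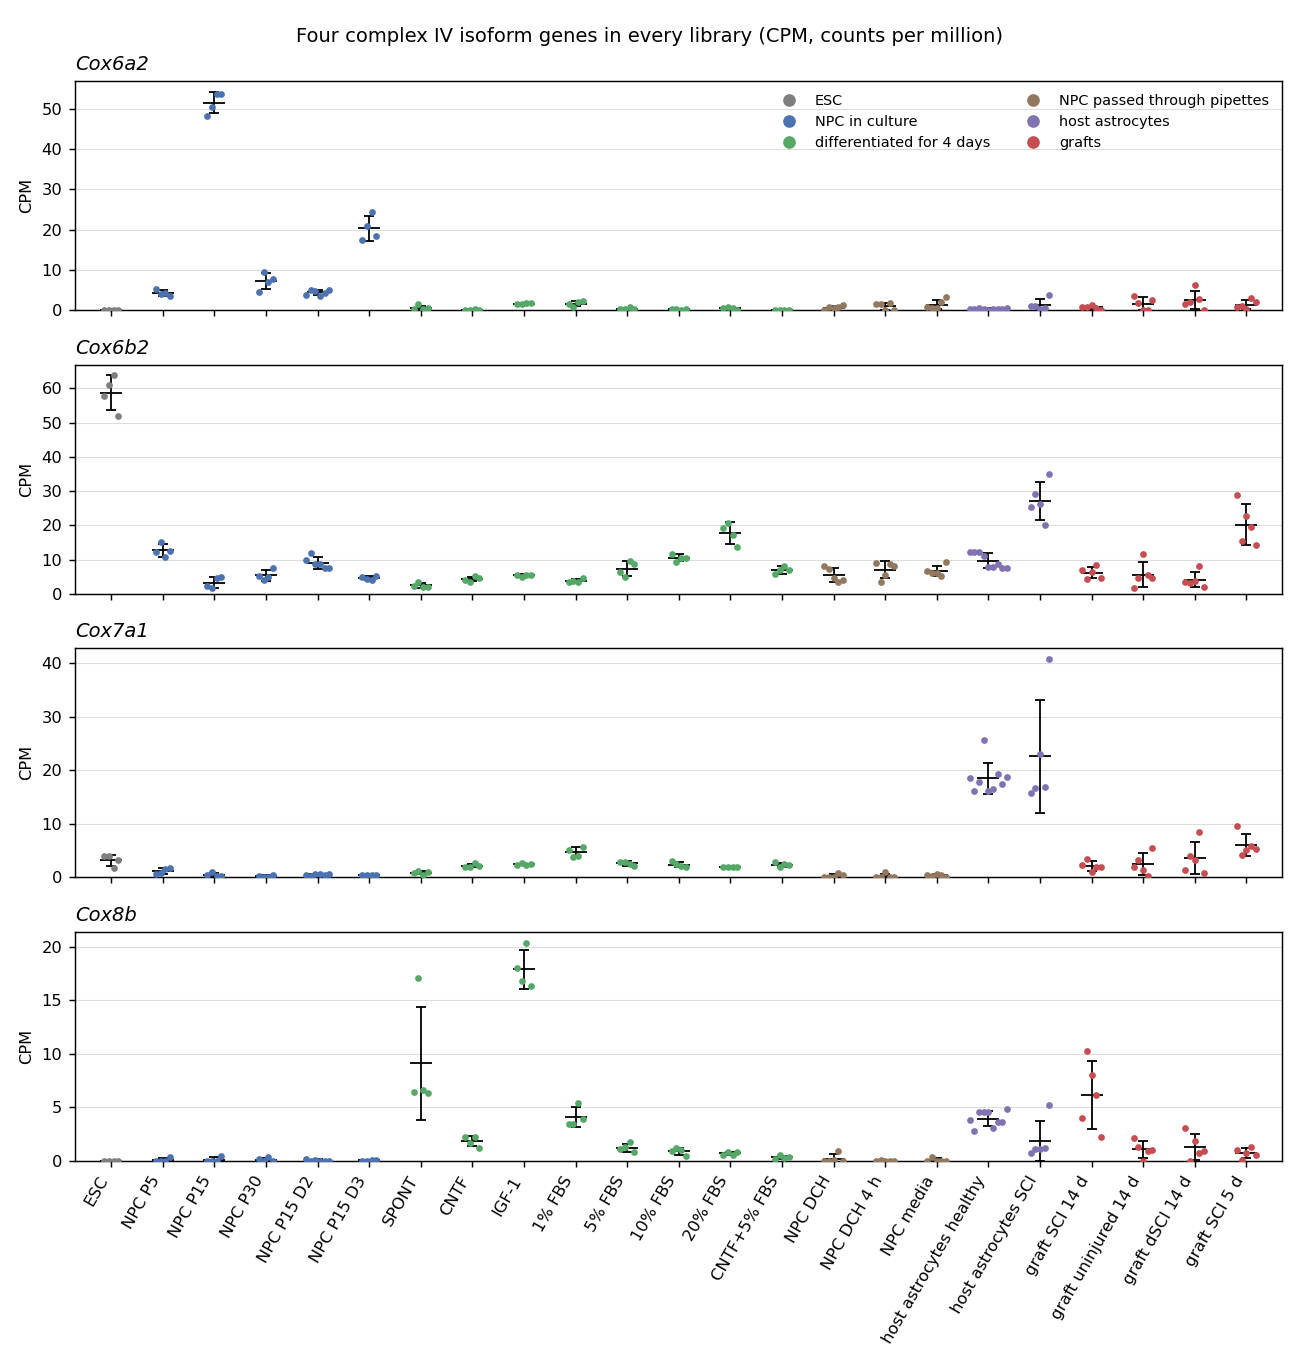
CPM of Cox6a2, Cox6b2, Cox7a1 and Cox8b in each library, by group; points are libraries, and bar and whiskers the group mean ± SD. Cox6a2 is high in NPC P15, Cox6b2 in ESC and injured host astrocytes, Cox7a1 in host astrocytes, and Cox8b in IGF-1 and SPONT cultures.

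The injury contrast had a positive median in grafts and a negative one in host astrocytes, and the difference was tested as an interaction. It was above 0 and called for 20 of 84 members and below 0 for none, where 6.11% of all genes tested were called above 0, with a median of 0.76 against -0.13. Complex I gave 8 of these genes, complex V 5, complex IV 4, complex III 2 and complex II 1. Ndufc2 differed most at 10 CPM or more (1.61 ± 0.36, adjusted p = 0.00152), with means of 84.9 ± 18.4 and 155 ± 78.8 CPM in uninjured and injured grafts and of 191 ± 29.5 and 147 ± 45.2 CPM in healthy and injured astrocytes. Uqcrh (1.43 ± 0.37, adjusted p = 0.00534), Cox6c (1.33 ± 0.35, adjusted p = 0.00573) and Cox8a (0.91 ± 0.26, adjusted p = 0.00985) followed the same pattern. Grafts in injured cord had been placed 2 days after the crush, while the healthy astrocytes came from mice without grafts, so the 2 contrasts differ in more than the cell source. The count was 48 without host astrocytes SCI replicate 5 and 33 without graft SCI 14 d replicate 5. It was between 7 and 12 without host astrocytes healthy replicate 4, without host astrocytes SCI replicate 1, 2, 3 or 4, without graft SCI 14 d replicate 3 or 4, or without graft uninjured 14 d replicate 3 or 4.

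The 4 isoform genes lie on chromosome 7 of the mouse genome (GRCm38), Cox6b2 at 4751792 to 4753094, Cox7a1 at 30184171 to 30186030, Cox6a2 at 128205435 to 128206366 and Cox8b at 140898942 to 140900446. Cox6b2 had its highest group mean in ESC, Cox6a2 in NPC P15, Cox8b in IGF-1 cultures and Cox7a1 in host astrocytes. Injured host astrocytes held both Cox6b2 (20.0 to 34.9 CPM) and Cox7a1 (15.7 to 40.7 CPM). Brown fat and muscle, where Cox7a1 and Cox8b are known to be used, were checked by markers: the brown fat gene Ucp1 was at most 0.0566 CPM in every culture library with FBS, CNTF or IGF-1, and muscle markers summed to at most 4.22 CPM in those libraries. In healthy host astrocytes muscle markers summed to between 2.74 and 16.0 CPM. Some grafts were higher, with Ucp1 at 16.0 CPM in dSCI 14 d replicate 1 and 5.78 CPM in uninjured 14 d replicate 4. Muscle markers summed to 50.8 CPM in uninjured 14 d replicate 5. In SCI 14 d grafts Ucp1 was at most 0.815 CPM and muscle markers at most 13.3 CPM. The part of such tissue in the levels of Cox7a1 and Cox8b was not tested.

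Subunit genes are short, and short genes as a whole moved in many of these contrasts. Among the members with a length, those with spliced transcripts of up to 1000 bases had a median of 0.64 in IGF-1 against SPONT, those above that and up to 2000 bases 0.38 and those above 2000 bases 0.26. All genes tested of the same lengths had medians of 0.43, 0.21 and -0.15. In SPONT against NPC P15 the members' medians were 0.75, 0.41 and 0.31, beside 0.45, 0.32 and -0.08 for all genes. For the CNTF interaction they were -0.53, -0.35 and -0.20, beside -0.49, -0.26 and 0.10, and for grafts in injured against uninjured cord 0.68, 0.18 and -0.15, beside 0.61, 0.17 and -0.17. In these 4 contrasts the median of all genes of up to 1000 bases had the same sign as that of the short members. Host astrocytes went otherwise. There members fell by 0.24, 0.46 and 0.73, most in the longest class, where all genes of the 3 classes had 0.24, 0.13 and -0.05. In 20% against 1% FBS members of all lengths were alike (medians -0.49, -0.45 and -0.53), beside -0.15, 0.04 and 0.01 for all genes. The part of transcript length or RNA integrity in any of these results was not tested.

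**Figure D5:**
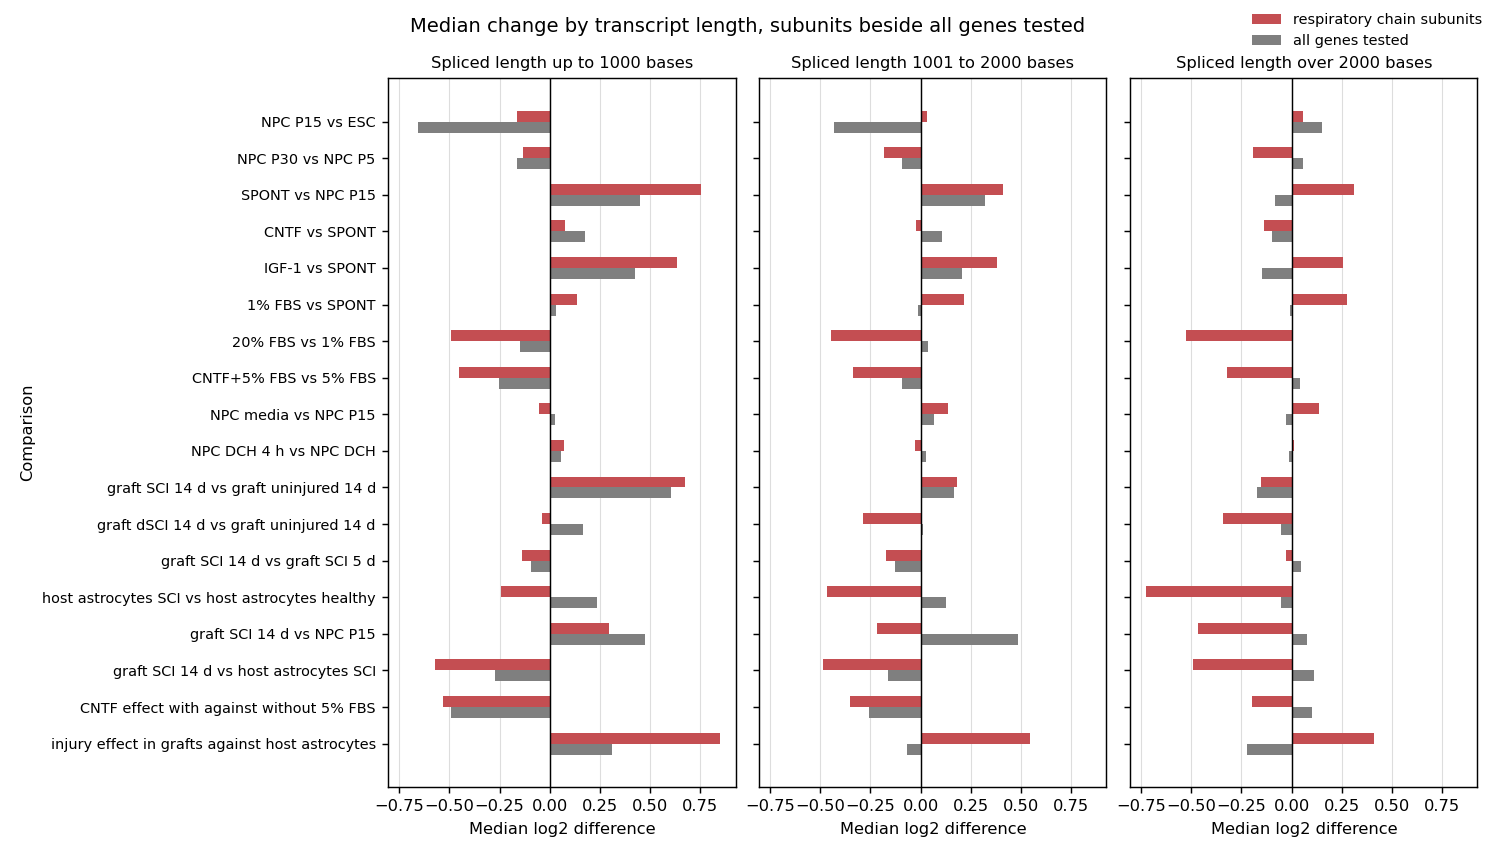
Median log2 difference of the respiratory chain subunits (red) and of all genes tested (grey) in 3 classes of spliced transcript length, for 16 comparisons and 2 interactions; bars start at 0 and carry no error, since they are medians over genes. In grafts of injured against uninjured cord red and grey bars nearly match, and in host astrocytes they point apart for transcripts of up to 2000 bases.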

How the data were processed

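Ribosome-bound RNA was sequenced in 107 libraries of 23 groups. The authors trimmed reads with Trimmomatic, aligned them to the mouse genome mm10 with HISAT2 and counted them per gene with featureCounts. The deposited values are these raw counts, with 1 file per library. Gene identifiers were named from RefSeq (25275 symbols) and GENCODE M21 (18), and 1886 of 27179 genes had no symbol. No 2 libraries held identical values.

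For each comparison, counts of its groups only were filtered (filterByExpr), scaled by TMM and tested with edgeR 4.0.16 (quasi-likelihood, R 4.3.3). The Benjamini-Hochberg adjustment ran over all genes tested, and calls were made at an adjusted p under 0.01, as in the study's methods. The standard error of a log2 difference is its size divided by the square root of F. CPM are counts per library total of all genes and are not TMM scaled, so a ratio of CPM can differ from the fitted log2 difference. Sums of CPM were described, not tested. The code was tested on simulated data. DESeq2 1.42.0 and the other alternatives are described in the closing section. The counting used default settings, and how reads shared by near-identical gene copies affected any member was not tested.

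Members followed a rule on gene symbols alone. That rule and the gene lists were set with earlier results of these data known. Genes named in each comparison were the 3 largest called rises and falls among members at 10 CPM or more on average in either group, 10 core subunits, paired isoforms, and members moving against their complex. Spliced length is the median over protein-coding GENCODE M21 transcripts, known for 85 members.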

Additional observations from a re-analysis of the deposited data

Results flagged for a closer look

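Single libraries were compared with the rest of their group for the sums and the named genes (Dixon's test, groups of 4 to 9), and 34 sets of values held 1 beyond the 95% limit, or 19.4% of those tested, where chance gives about 1 in 20. The sums share genes and libraries, so these are not separate observations.

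Host astrocytes SCI replicate 5 was the highest of its group in complex I (6517 CPM), complex III (1990.5), complex IV (4613), complex V (5145), all members (19195) and Cox7a1 (40.7). Host astrocytes healthy replicate 4 was highest in complex I (5965), complex IV (3928), all members (18549.8) and Cox7a1 (25.6), and replicate 7 in Sdha (666). Graft SCI 5 d replicate 1 was highest in complex I (5521), complex III (1488), complex IV (3567) and all members (15132). Low libraries were graft SCI 14 d replicate 5 in complex II (359) and complex V (1706), and graft dSCI 14 d replicate 5 in complex II (271) and complex V (1209.9).

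In culture, SPONT replicate 2 was highest in complex V (6436), Cox6a2 (1.42), Cox8b (17.05) and Atp5e (189.9), and 20% FBS replicate 4 in complex III (1498), complex V (5344), all members (15278) and Ndufc2 (179.3). NPC P15 replicate 1 was lowest in complex I (3262) and complex IV (2077). Other single values were IGF-1 replicate 2 high in complex II (945), NPC media replicate 5 low in complex II (746.6), NPC DCH 4 h replicate 2 low in complex IV (2424), 1% FBS replicate 4 high in Cox6b2 (4.73) and CNTF+5% FBS replicate 2 low in Cox6c (145.8). No cause of these values was tested.

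The effect of CNTF differed with and without 5% FBS for 25 members by an interaction test, among them Cox6c (log2 difference of effects -1.16), Uqcr10 (-0.81) and Atp5g1 (-0.79). The effect of injury differed between grafts and host astrocytes for 20 members, among them Ndufc2 (1.61), Uqcrh (1.43) and Cox6c (1.33).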

How the results depend on the processing

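With all groups in 1 fit the counts of called members were 27 for NPC P15 against ESC, 3 for NPC P30 against P5, 0 for CNTF, 1 for 1% FBS, 38 for 20% against 1% FBS, 5 for CNTF+5% FBS, 8 for NPC media, 44 for SCI against uninjured grafts, 8 for dSCI grafts, 18 for 14 d against 5 d, 37 for grafts against NPC P15 (19 higher, 18 lower, so the majority turned), 52 for grafts against host astrocytes, 2 for the CNTF interaction and 49 for the injury interaction. DESeq2 gave 6 for CNTF, 69 for IGF-1, 2 for NPC DCH 4 h, 18 for SCI against uninjured grafts, 5 for 14 d against 5 d, 27 for grafts against NPC P15 (15 higher, 12 lower), 17 for grafts against host astrocytes and 32 for the injury interaction. Without a filter on low counts IGF-1 gave 34. DESeq2 size factors within edgeR moved no count by over 1.5 times.

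Replicate numbers did not pair the samples, since in no comparison did every same-numbered pair correlate above 0.1. With the number as a replicate block the counts were 0 for IGF-1, 1 for 1% FBS, 1 for NPC DCH 4 h, 0 for SCI against uninjured grafts, 0 for 14 d against 5 d, 16 for host astrocytes, 30 for grafts against NPC P15 (19 higher, 11 lower), 4 for grafts against host astrocytes and 3 for the injury interaction, and other counts stayed within 1.5 times.

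Leaving out 1 library at a time gave 41 to 48 (NPC P15 against ESC), 27 to 33 (P30 against P5), 53 to 65 (SPONT), 1 to 35 (CNTF), 0 to 76 (IGF-1), 1 to 19 (1% FBS), 58 to 72 (20% against 1% FBS), 42 to 73 (CNTF+5% FBS), 19 to 29 (NPC media), 0 to 1 (NPC DCH 4 h), 0 to 20 (SCI against uninjured grafts), 0 throughout (dSCI grafts), 0 to 5 (14 d against 5 d), 21 to 61 (host astrocytes), 12 to 33 (grafts against NPC P15), 5 to 8 (grafts against host astrocytes), 8 to 69 (CNTF interaction) and 7 to 48 (injury interaction). Without NPC DCH replicate 4 or 5 the count was 1. The direction of most calls turned without SPONT replicate 2 for CNTF (31 rose, 4 fell), and without graft SCI 14 d replicate 5 for 14 d against 5 d (4 called) and for grafts against NPC P15 (33).

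The NPC culture used as reference also moved counts. NPC P5 in place of NPC P15 gave 49 called against ESC (30 rose) and 20 in NPC media (2 rose), with Ndufv1 at -0.032 and Ndufa11 at -0.19 in the latter. NPC P30 gave 15 in NPC media. NPC P15 D3 gave 65 against ESC, 29 for SPONT, 70 for NPC media and 44 for grafts. With it, Ndufa11 (0.15) and Cox4i1 (0.33) turned against ESC. In SPONT, Ndufa2 (-0.14), Atp5l (-0.20), Cox4i1 (-0.11) and Sdha (-0.082) turned. In NPC media, Ndufv1 (-0.41), Ndufa11 (-1.20) and Atp5a1 (-0.27) turned. In grafts, Ndufa11 (-0.23), Ndufa2 (-0.45), Cox4i1 (-0.50), Uqcrh (-0.35) and Atp5h (-0.30) turned. The cause was not tested.

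With TMM-scaled library sizes the log2 ratios of summed levels in NPC P15 against ESC were -0.035 (complex I), 0.33 (II), -0.33 (III), -0.31 (IV), -0.43 (V) and -0.27 (all members). They were 0.46 (II), 0.17 (V) and 0.47 (all) for SPONT, 0.17 (II) for IGF-1, -0.68 (II) for host astrocytes and -0.13 (II) for grafts against NPC P15. Of the called values of named genes, only a minority, 35, passed the threshold in the same direction under every alternative. Most did not do so under at least 1 alternative, and 14 turned sign under at least 1.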
